A study of Mus musculus with 4 samples.

Results

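The 10 genes described here store, carry and release iron. They were chosen by name and function, with earlier results of these counts known, as the ferritins, the transferrin system, the iron regulatory proteins and heme oxygenase. No cut-off on a measured value entered the choice, and all values of the genes below are therefore a description of them. Each of the 10 symbols matched 1 of 53465 genes listed, and all 10 were among the 15766 genes that passed the filter on low counts. RNA-Seq was carried out on 1° mouse oligodendroglial cultures (OGCs) from forebrain tissue of P2 to P4 mice, kept for 3 days under differentiating conditions after shake-off and depletion of microglia. Each genotype had 2 libraries. Ctrl cells were Zfp276 flox/flox without Cre, and Zfp276cko cells were Sox10::Cre tg; Zfp276 flox/flox. According to the study's methods, a Rosa26 reporter allele for tdTomato was crossed into the mice used for culture, to identify Zfp276cko newborns. Whether ctrl mice carried this allele is not stated there. The preparations of a genotype are called independent, and each pooled several mice. Cre was driven by regulatory sequences of Sox10 to delete Zfp276 in OGCs.

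Iron enters most cells bound to transferrin (Trf). The complex is taken up by the transferrin receptor (Tfrc) and the iron is reduced in the endosome by Steap3. Surplus iron is kept in ferritin, a shell of heavy (Fth1) and light (Ftl1) subunits, and is released again when the receptor Ncoa4 takes ferritin to the lysosome. Iron regulatory proteins, encoded by Aco1 and Ireb2, sense iron and bind iron-responsive elements, which are short hairpins in mRNAs. Bound in a 5′ UTR they hold back translation, and bound in a 3′ UTR they protect the mRNA from decay. Hmox1 frees iron from heme, and ceruloplasmin (Cp) oxidises iron on its way out of the cell. OLs are known for their high content of iron, ferritin and transferrin, and microglia for a high content of ferritin.

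The hairpins are shown because they set 3 of the 10 mRNAs apart, and because a count of mRNA reads their 2 positions differently. The search asked for the loop CAGTGN, closed by 5 base pairs with G-T pairs allowed, and for a C just before the 5′ arm, in UTRs of protein-coding transcripts of the GENCODE annotation of mm10, on the transcribed strand. Matches were found in 160 of 21877 protein-coding genes (0.731%) and in 3 of the 10 iron genes. A match is a description of the letters and not proof of a working element. The 28 bases around each loop are given 5′ to 3′ with the 6 bases of the loop in capitals. The ferritin mRNAs each had 1 in the 5′ UTR, at chr19:9982733-9982760 on the plus strand for Fth1 and at chr7:45459779-45459806 on the minus strand for Ftl1:
Fth1: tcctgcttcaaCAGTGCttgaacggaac
Ftl1: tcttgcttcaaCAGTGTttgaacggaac

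Both ferritin hairpins were identical at 26 of 28 bases. Tfrc had 4 in its 3′ UTR, all on the plus strand, at chr16:32631220-32631247, chr16:32631599-32631626, chr16:32631664-32631691 and chr16:32631711-32631738, in this order (named A to D):
Tfrc A: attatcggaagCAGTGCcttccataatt
Tfrc B: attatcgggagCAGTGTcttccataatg
Tfrc C: tatatcggagaCAGTGAtctccatatgt
Tfrc D: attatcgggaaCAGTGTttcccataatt

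The Tfrc hairpins shared between 17 and 25 of 28 bases with each other and between 9 and 13 with those of the ferritins, which include the letters fixed by the search. A count of reads can follow the 3′ hairpins of Tfrc, through the amount of mRNA, but is blind to translation of the ferritins.

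Between 21068322 and 26599809 reads were counted per library. Values below are normalized counts, which are counts scaled to the geometric mean of the effective library sizes. Zfp276 was at 1632 and 2209 in ctrl and at 485 and 498 in Zfp276cko libraries (log2 fold change −1.97 ± 0.18 SE, adjusted p = 0.0962 with edgeR's quasi-likelihood test). The ctrl libraries differed far more than the Zfp276cko libraries. Of 14307 genes with a mean of 20 or more, 12.7% differed 2-fold or more between the ctrl libraries and 0.308% between the Zfp276cko libraries. Genes were called at an adjusted p no higher than 0.05, with a log2 fold change of 0.6 or more in either direction and 20 or more normalized counts on average. By this rule edgeR called 0 of 15766 genes (0%) and none of the 10. When the adjusted p was replaced by the unadjusted one, it gave 475 genes lower (3.01%) and 805 higher (5.11%), and DESeq2 with the same thresholds called 338 lower (2.27%) and 449 higher (3.02%).

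Ferritin, Hmox1 and Cp mRNAs were more abundant in each Zfp276cko library than in either ctrl library, whereas Aco1 was less abundant. Of the 10 genes, 5 were above both ctrl libraries, against 26.8% of all genes tested, and 1 was below both, against 23.7%. The other 4 overlapped. Against ctrl 2 alone, 8 of the 10 were above, beside 44.4% of all genes tested, and 1 below, beside 42.6%. Against ctrl 1 alone, 5 were above, beside 46.5%, and 5 below, beside 41.7%. With an unadjusted p, or with DESeq2, 2 of the 10 were higher, Fth1 and Cp, and 0 were lower. The median log2 fold change of the 10 was 0.17, beside −0.00125 for all genes tested, but its sign rested on ctrl 2: it was −0.03 without that library and 0.29 without ctrl 1. In bulk samples, fewer cells of a type and less RNA per cell cannot be told apart.

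**Figure D1:**
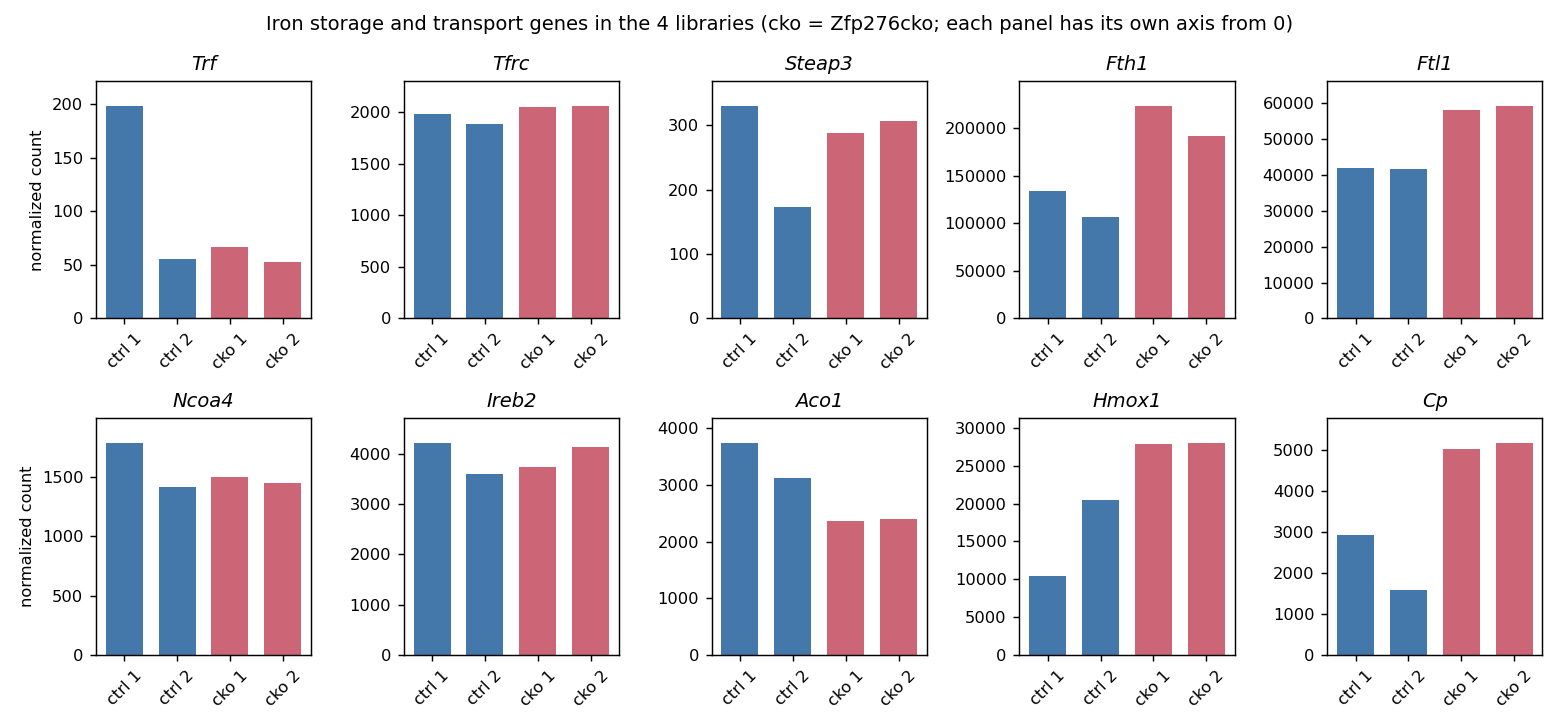
Normalized counts (vertical axis, from 0, a scale for each gene) of the 10 genes in the 2 ctrl libraries (blue bars) and the 2 Zfp276cko libraries (red bars); a bar is 1 library. Fth1, Ftl1, Hmox1, Cp and, by little, Tfrc have both red bars above both blue bars. Aco1 has both below, and Trf and Hmox1 differ most between the ctrl libraries.

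Fth1 (chromosome 19, 9980598 to 9985098, plus strand) encodes the heavy subunit, which oxidises iron for storage. It was at 133833 and 106451 in ctrl and at 222678 and 191803 in Zfp276cko libraries. Both Zfp276cko values were above both ctrl values, and the mean was 172% of ctrl. The log2 fold change was 0.79 ± 0.21 SE with a 95% interval from 0.23 to 1.35 (adjusted p = 0.219 with edgeR, 0.00581 with DESeq2).

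Ftl1 (chromosome 7, 45457944 to 45459884, minus strand) encodes the light subunit, which supports the iron core. It was at 41756 and 41623 in ctrl and at 58086 and 58996 in Zfp276cko libraries, so that replicates lay close together and the genotypes did not overlap. The mean was 140% of ctrl. With a log2 fold change of 0.49 ± 0.13 SE (interval 0.14 to 0.84) it was under the threshold on fold change, and its adjusted p was 0.219 with edgeR and 0.00679 with DESeq2. It was the steadiest of the 5 genes above ctrl: without ctrl 1 the log2 fold change was 0.49 and without ctrl 2 it was 0.47.

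Whether the subunits moved alike was asked through their ratio within each library, which does not depend on scaling between libraries. There were 3.21 and 2.56 Fth1 reads for each Ftl1 read in ctrl and 3.83 and 3.25 in Zfp276cko libraries. The log2 ratio was higher by 0.30 on average. The genotypes did not overlap but nearly touched, at 1.68 in ctrl 1 and 1.70 in Zfp276cko 2. The difference was 0.47 without ctrl 1, 0.14 without ctrl 2 and 0.18 without Zfp276cko 1. An exact two-sided permutation test gave p = 0.333, which is the smallest p that 2 against 2 libraries allow. This holds for all ratios given here, so that no ratio can pass a threshold of 0.05.

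Reads of both ferritin genes are uncertain to the extent that processed copies in the genome take reads or make them map to several places. Of the other genes with a ferritin symbol, Ftl1-ps1 alone had a mean normalized count of at least 20. It was at 161 and 97.0 in ctrl and at 161 and 161 in Zfp276cko libraries. On the opposite strand, Gm10252 overlaps 26.5% of the exon bases of Ftl1, and it had between 2 and 12 counts per library. On the same strand, the miRNA gene Gm22133 overlaps 8.13% and had 0 counts in all libraries, and whether reads there were set aside as ambiguous was not tested.

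Ncoa4 (chromosome 14, 32159865 to 32179855, plus strand), the receptor for the breakdown of ferritin, was at 1785 and 1417 in ctrl and at 1504 and 1454 in Zfp276cko libraries. The Zfp276cko values lay between those of ctrl. The log2 fold change of −0.11 ± 0.14 SE had an interval from −0.50 to 0.27 (adjusted p = 0.746 with edgeR).

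Hmox1 (chromosome 8, 75093621 to 75100589, plus strand), the inducible heme oxygenase, was at 10425 and 20425 in ctrl and at 27826 and 27961 in Zfp276cko libraries. Both Zfp276cko values were nearly equal and above both ctrl values, while ctrl 1 was the lowest library by far. The log2 fold change of 0.85 ± 0.35 SE had an interval from −0.10 to 1.81 (adjusted p = 0.355 with edgeR, 0.146 with DESeq2). Its size depended on ctrl: it was 0.45 without ctrl 1 and 1.41 without ctrl 2.

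Cp (chromosome 3, 19957054 to 20009145, plus strand) encodes a copper-containing ferroxidase, which astrocytes carry at their surface. It was at 2941 and 1597 in ctrl and at 5017 and 5171 in Zfp276cko libraries. The genotypes did not overlap, and its mean, at 224% of ctrl, showed the largest log2 fold change of the 10 genes, 1.17 ± 0.32 SE (interval 0.31 to 2.02, adjusted p = 0.229 with edgeR, 0.0128 with DESeq2). Without ctrl 1 it was 1.67 and without ctrl 2 it was 0.78. Cp shares 1.13% of its exon bases with Hps3 on the opposite strand.

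The iron regulatory proteins differed from each other. Aco1 (chromosome 4, 40143081 to 40198338, plus strand) encodes iron regulatory protein 1, which is a cytosolic aconitase when it holds an iron-sulfur cluster. It was at 3736 and 3127 in ctrl and at 2373 and 2407 in Zfp276cko libraries, and was the single gene of the 10 with both Zfp276cko libraries below both ctrl libraries. The mean was 69.7% of ctrl (log2 fold change −0.52 ± 0.12 SE, interval −0.85 to −0.19, adjusted p = 0.193 with edgeR, 0.0551 with DESeq2), which did not reach the threshold on fold change.

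Ireb2 (chromosome 9, 54863789 to 54912530, plus strand), iron regulatory protein 2, which is degraded when iron is plentiful, was at 4210 and 3593 in ctrl and at 3747 and 4144 in Zfp276cko libraries. The genotypes overlapped. The log2 fold change was 0.02 ± 0.13 SE with an interval from −0.33 to 0.36 (adjusted p = 0.967 with edgeR). There were 1.13 and 1.15 Ireb2 reads for each Aco1 read in ctrl and 1.58 and 1.72 in Zfp276cko libraries, a log2 difference of 0.53 without overlap (exact permutation p = 0.333).

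For uptake through transferrin, the receptor was nearly level. Tfrc (chromosome 16, 32608920 to 32632794, plus strand) was at 1978 and 1880 in ctrl and at 2048 and 2054 in Zfp276cko libraries. Both Zfp276cko values were higher, but by little: the log2 fold change was 0.09 ± 0.08 SE, and its interval from −0.14 to 0.32 leaves room for a small change in either direction (adjusted p = 0.667 with edgeR). The mRNA with the 3′ hairpins printed above therefore stood at 106% of ctrl, whereas the mRNAs with the 5′ hairpins stood at 172% and 140%. Set against ferritin in the same library, the log2 ratio of Tfrc to Fth1 was −6.08 and −5.82 in ctrl libraries and −6.76 and −6.55 in Zfp276cko libraries. That of Tfrc to Ftl1 was −4.40 and −4.47 in ctrl libraries and −4.83 and −4.84 in Zfp276cko libraries. Neither ratio overlapped between genotypes (differences −0.70 and −0.40, exact permutation p = 0.333 for each).

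Steap3 (chromosome 1, 120190757 to 120272705, minus strand), the endosomal ferrireductase, was at 329 and 173 in ctrl and at 288 and 307 in Zfp276cko libraries. The Zfp276cko values lay between those of ctrl, and the sign of the change turned with the ctrl library left out: the log2 fold change was 0.25 ± 0.35 SE with all libraries (adjusted p = 0.782 with edgeR), 0.79 without ctrl 1 and −0.16 without ctrl 2.

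Trf (chromosome 9, 103204001 to 103230444, minus strand), the iron carrier that OLs make, was at 198 in ctrl 1, 55.7 in ctrl 2, 66.3 in Zfp276cko 1 and 52.8 in Zfp276cko 2. A single library was high, and ctrl 2 lay between the Zfp276cko libraries. Ctrl 1 was 3.55-fold above ctrl 2. Counts of Trf were as low as 50 in a library. The log2 fold change of −1.09 ± 0.66 SE (interval −2.89 to 0.72, adjusted p = 0.499 with edgeR, 0.519 with DESeq2) was 0.09 without ctrl 1 and −1.75 without ctrl 2. The ratio of Trf to Sox10, which marks all OGCs, overlapped as well, with log2 values of −6.51 and −8.53 in ctrl and −8.05 and −8.45 in Zfp276cko libraries (exact permutation p = 1).

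Ctrl 1 stood apart in other genes too. Summed markers of fibroblasts, mural and vessel cells were at 8892 in ctrl 1, 541 in ctrl 2 and 457 and 410 in the Zfp276cko libraries. Of 8 markers 7 were tested, and Cldn5 had 0 counts in all libraries. The collagen genes Col1a1, Col1a2 and Col3a1 made up most of the ctrl 1 sum, at 2498, 2678 and 2358. Pecam1, a marker of vessel cells, was instead higher in Zfp276cko libraries, at 151 and 159 against 105 and 92.5 in ctrl. Opalin, a gene of late OLs picked out after its values were seen, was at 1490 in ctrl 1, 213 in ctrl 2 and 97.7 and 97.9 in the Zfp276cko libraries. The part of these genes in the height of Trf was not tested. Among 11869 genes with a mean of at least 100, those with the pattern most like Trf over the 4 libraries were Fbn1, Cyp26b1 and Cd82, at Euclidean distances of 0.0699, 0.176 and 0.209 between centred log2 values.

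Trf has a further limit. In the annotation, 2108 of its 3320 exon bases (63.5%) also belong to Gm20425, a gene on the same strand, which had 0 counts in all 4 libraries. Reads in shared exons may have been set aside as ambiguous, depending on the annotation used for counting, and the level of Trf may then be too low. Whether this occurred was not tested.

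**Figure D2:**
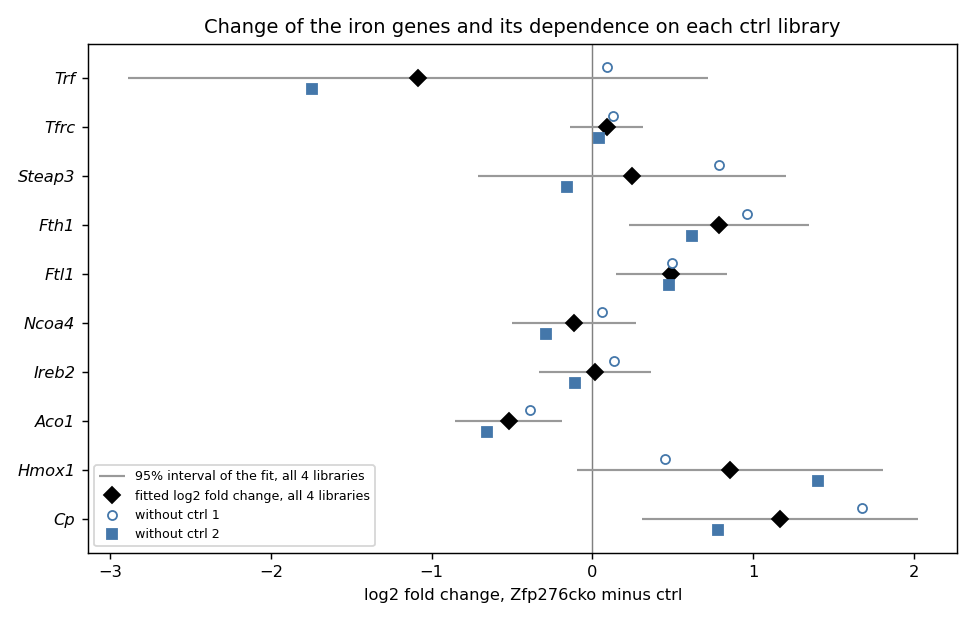
Log2 fold change of each gene, Zfp276cko minus ctrl (horizontal axis), fitted with all 4 libraries (black diamonds, with 95% intervals as grey lines) and without ctrl 1 (open circles) or ctrl 2 (filled squares). Fth1, Ftl1, Hmox1, Cp and, by little, Tfrc stay right of 0 and Aco1 left of 0 under both omissions. Trf runs from −1.75 to 0.09.

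Levels can be compared between genes per length. On the scale of CPM per kilobase of all exons joined, ctrl means ran from 1479 for Fth1 and 1329 for Ftl1 over 376 for Hmox1, 32.6 for Aco1, 17.6 for Ireb2, 13.3 for Tfrc, 10.1 for Cp, 7.30 for Ncoa4 and 1.88 for Steap3 to 1.63 for Trf. In the ctrl libraries Fth1 and Ftl1 overlapped in level, as did Cp with Tfrc and with Ncoa4, and Steap3 with Trf. In Zfp276cko libraries Fth1 reached a mean level of 2552 and Ftl1 one of 1866, without overlap. Cp and Aco1 were both at 22.7 on this scale.

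Joined exons of Fth1 add up to 3.47 kb, whereas its principal transcripts have 0.929 and 1.49 kb, so its level depends on the length taken. By the lengths of the principal transcripts, chosen with the values in view, the ctrl level of Fth1 was between 3435 and 5524 and that of Ftl1 1839, with Hmox1 at 420, Aco1 at 38.2, Ireb2 at 28.9, Cp at 24.1, Ncoa4 between 16.8 and 20.5 and Tfrc at 16.9. Cp then stood above Tfrc, and in Zfp276cko libraries its level of 54.0 was above that of Aco1, at 26.6. Both lengths put the ferritins and Hmox1 first and Steap3 and Trf last.

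**Figure D3:**
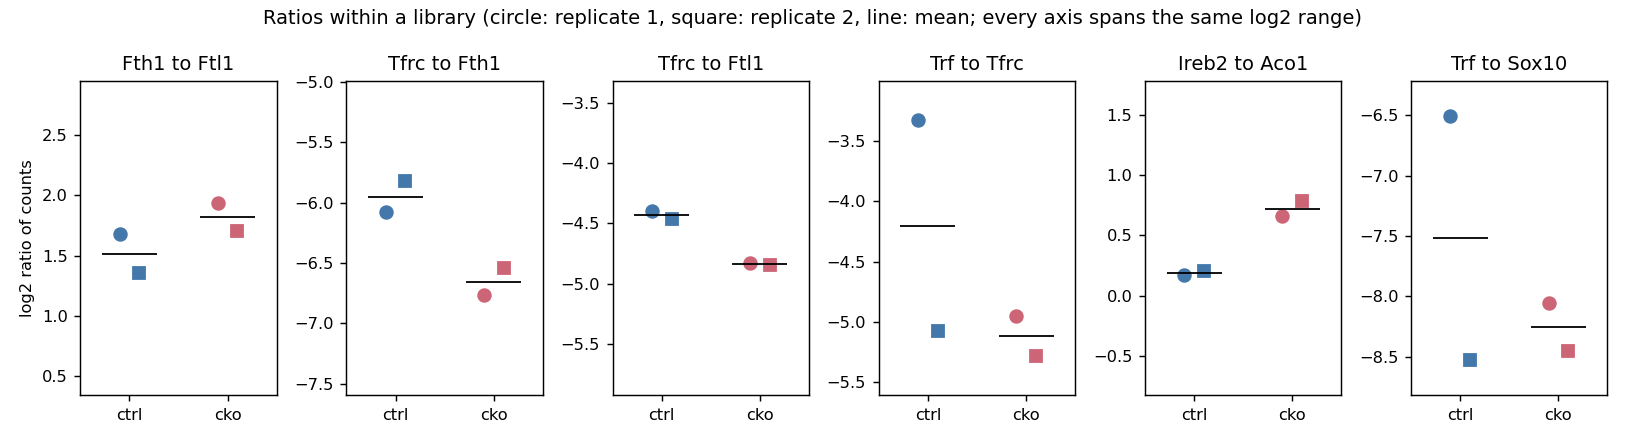
Log2 ratios of counts within a library (vertical axis, the same span in each panel) for 6 pairs of genes in ctrl (blue) and Zfp276cko (red) libraries; circles are replicate 1, squares replicate 2 and lines the mean. Tfrc against both ferritins and Ireb2 against Aco1 show no overlap between genotypes, and both ratios of Trf do.

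The genes around these 10 were read from a list of 52 further genes of iron and heme metabolism, of which 44 were tested. None was called by edgeR. With an unadjusted p, or with DESeq2, 1 was lower and 0 were higher. Both Zfp276cko libraries were above both ctrl libraries for 13 and below for 7, and 24 overlapped. Among all genes tested, 26.8% were above and 23.7% below, against which these counts and those of each role are to be read. The median log2 fold change was −0.00377, beside −0.00125 for all genes tested.

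The gene that was lower by these rules was Alad, which makes porphobilinogen early in heme synthesis. It was at 1220 and 960 in ctrl and at 499 and 425 in Zfp276cko libraries, without overlap (log2 fold change −1.24 ± 0.18 SE, adjusted p = 0.123 with edgeR, 2.06e-05 with DESeq2). Of the 8 heme synthesis genes tested, 3 were below both ctrl libraries and 1 above. The one above was Alas1, which begins the pathway, at 1163 and 1066 in ctrl and at 1416 and 1392 in Zfp276cko libraries (log2 fold change 0.33, adjusted p = 0.240 with edgeR).

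Of the 9 genes of heme transport and breakdown, the group that works with Hmox1, 5 were above both ctrl libraries and 0 below, beside 26.8% above and 23.7% below among all genes tested. The log2 fold changes had a median of 0.26 and a range from −0.05 to 0.44. The gene with most counts was Lrp1, a receptor that takes up heme bound to hemopexin among many ligands. It was at 18807 and 16642 in ctrl and at 23113 and 20365 in Zfp276cko libraries (log2 fold change 0.29, adjusted p = 0.408 with edgeR). None of the 9 reached a log2 fold change of 0.6.

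Among 7 tested genes of iron uptake, 3 were above and 1 below both ctrl libraries. Slc11a2, the transporter DMT1 that moves iron out of the endosome, was at 1911 and 2099 in ctrl and at 2323 and 2220 in Zfp276cko libraries (log2 fold change 0.18, adjusted p = 0.450 with edgeR). Slc39a8, a carrier of zinc, manganese and iron, was at 116 and 195 in ctrl and at 236 and 286 in Zfp276cko libraries (log2 fold change 0.74, adjusted p = 0.372 with edgeR). The metalloreductase Steap4 was low in ctrl 1 alone, at 119, against 766 in ctrl 2 and 716 and 710 in the Zfp276cko libraries (log2 fold change 0.69, adjusted p = 0.750 with edgeR).

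Of 7 tested genes of export and systemic control, 1 was above both ctrl libraries and 6 overlapped. Hfe, a partner of the transferrin receptor, was the one above, at 252 and 61.3 in ctrl and at 281 and 314 in Zfp276cko libraries (log2 fold change 0.93, adjusted p = 0.574 with edgeR). The exporter Slc40a1, whose mRNA also matched the hairpin in its 5′ UTR, was at 450 and 389 in ctrl and at 418 and 381 in Zfp276cko libraries, and overlapped. The iron chaperone Pcbp2 had most counts of the group and a log2 fold change of −0.13 (adjusted p = 0.718 with edgeR).

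Of 13 tested mitochondrial genes, 3 were above and 3 below both ctrl libraries, and the log2 fold changes had a median of −0.05. Alas2, the erythroid form of Alas1, also with a match to the hairpin in its 5′ UTR, had 0 counts in all libraries, as had Timd2, Hfe2 and Ftmt.

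**Figure D4:**
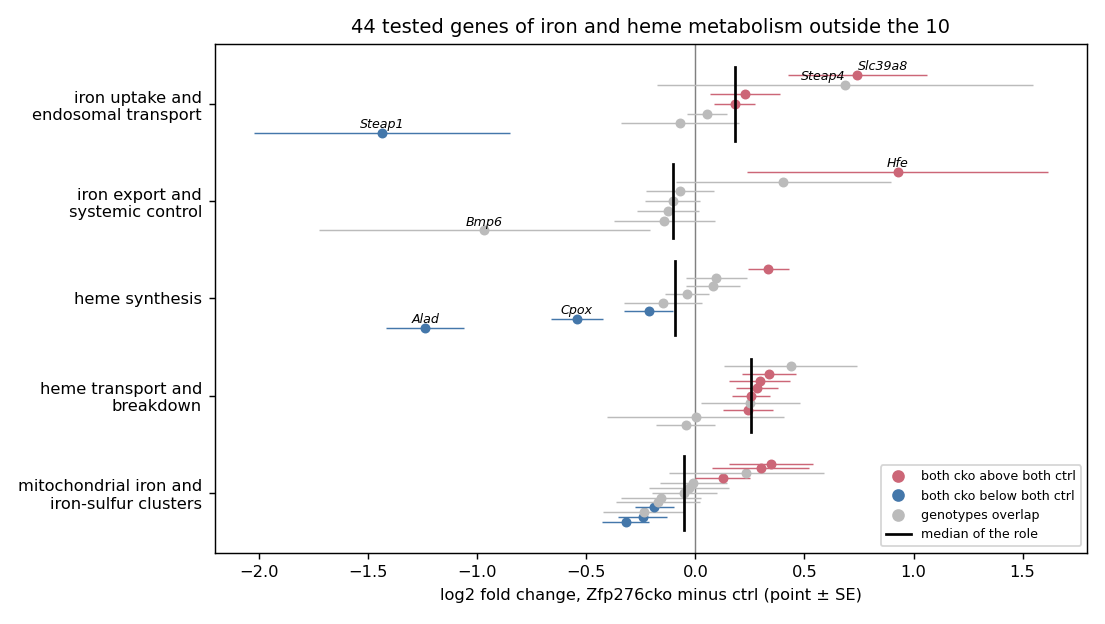
Log2 fold change, Zfp276cko minus ctrl (horizontal axis), of the 44 tested genes of iron and heme metabolism by role; points are genes with ± SE, black bars the median of a role, and colours tell whether the genotypes overlapped. Alad lies farthest left among genes with small errors, and the genes of heme transport and breakdown have a median of 0.26.

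Markers of the cell types that such cultures can hold were read beside the iron genes. Summed oligodendrocyte markers, among them Mog and Mag, were at 209389 and 263298 in ctrl and at 141846 and 144496 in Zfp276cko libraries. Of these markers, 9 of 11 were below both ctrl libraries, beside 23.7% of all genes tested. Summed genes of the OPC list (Pdgfra, Cspg4, Gpr17 and others) were at 162794 and 121884 in ctrl and at 86298 and 84034 in Zfp276cko libraries. Here 4 of 5 were below, beside the same 23.7%. Gpr17, which is not confined to OPCs, made up most of this difference, at 112335 and 69108 in ctrl and at 42887 and 40704 in Zfp276cko libraries. Pdgfra overlapped, at 9954 and 15355 in ctrl and at 11730 and 11452 in Zfp276cko libraries. Sox10 itself was at 17964 and 20548 in ctrl and at 17637 and 18435 in Zfp276cko libraries. Taken relative to Sox10 in the same library, the difference was 0.88 for Fth1, 0.58 for Ftl1, 1.03 for Hmox1, 1.32 for Cp and −0.42 for Aco1 on the log2 scale.

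Summed microglia markers (Aif1, Cx3cr1, Csf1r and others), of a cell type with much ferritin and Hmox1, were at 38607 in ctrl 1, 20196 in ctrl 2 and 28547 and 29502 in the Zfp276cko libraries, so that the genotypes overlapped. Of 10 such markers, 3 were above both ctrl libraries and 0 below, beside 26.8% above and 23.7% below among all genes tested. One was Cx3cr1, at 2269 and 2346 in ctrl and at 3065 and 2938 in Zfp276cko libraries. The others were Ptprc, at 2990 and 3072 against 5044 and 5214, and the lysosomal gene Cd68, at 3772 and 2212 against 6084 and 5775. The other 7 overlapped, and the median log2 fold change of the 10 microglia markers was −0.18. Csf1r, C1qa, Tyrobp, P2ry12, Itgam and Trem2 were highest in ctrl 1. Csf1r was at 11301 in ctrl 1, 1833 in ctrl 2 and 3056 and 2988 in the Zfp276cko libraries. Trem2 was at 1046, 178, 324 and 281 in the same order. The part of microglia in the ferritin, Hmox1 and Cp values was not tested.

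Summed astrocyte markers (Gfap, Aqp4, Slc1a2 and others) were between 38309 and 41196 in all libraries. Within this sum, single markers differed between the ctrl libraries in opposite directions. Gfap was at 17474 in ctrl 1 and 8384 in ctrl 2, and Slc1a3 at 2649 and 6684. Of 8, 2 were above both ctrl libraries and 1 below, beside 26.8% above and 23.7% below among all genes tested. Those above were Aldh1l1, at 313 and 611 in ctrl against 910 and 788 in Zfp276cko libraries, and Fgfr3, at 3064 and 945 against 3840 and 3434. The one below was S100b, at 11101 and 16760 against 10228 and 9646. The part of astrocytes in the Cp values was not tested. Summed neuron markers (Rbfox3, Snap25, Syt1 and others) were at 1241 in ctrl 1, 6029 in ctrl 2 and 3947 and 3876 in the Zfp276cko libraries. Hemoglobin genes, a mark of red blood cells and with them of heme, summed to at most 21.5 in any library, and those of choroid plexus, a source of transferrin, to at most 272. Interferon response genes (Rsad2, Mx2, Ifit1 and others) were at 6147 and 2825 in ctrl and at 62519 and 60986 in Zfp276cko libraries. Of these, 8 of 8 were above both ctrl libraries, beside 26.8% of all genes tested. This list was chosen with earlier results of these data known, so its share is only a description. The part of the interferon response genes in the iron gene values was not tested either.

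**Figure D5:**
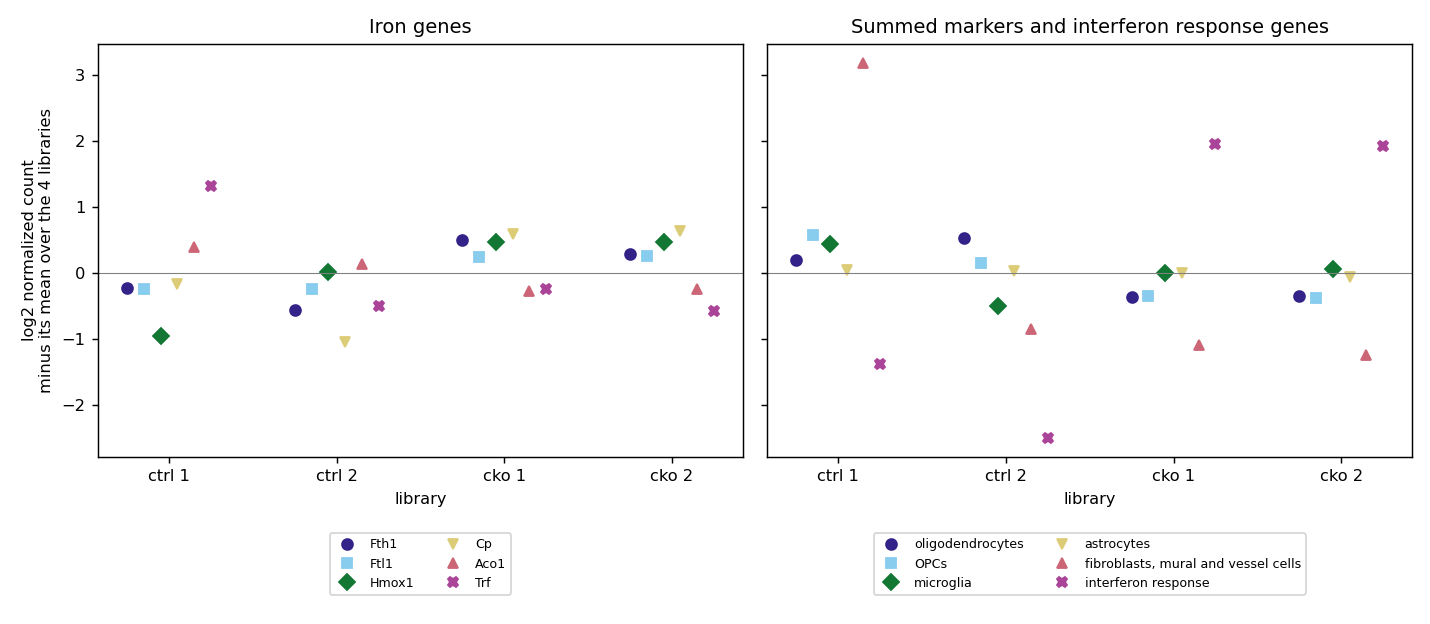
Log2 normalized count minus its mean over the 4 libraries (vertical axis) for 6 iron genes (left) and for summed markers of 5 cell types and interferon response genes (right); each point is 1 library. Trf and the summed fibroblast, mural and vessel markers, mostly collagen genes, both stand high in ctrl 1. Interferon response genes stand high in both Zfp276cko libraries.

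Genes with a pattern most like Fth1 over the 4 libraries were 5730409E04Rik, Renbp and Aga, at distances of 0.065, 0.0929 and 0.0999, and 87 of 11868 genes were within 0.25. For Tfrc, Fcer1g, Hps5 and Rbm33 were nearest, but 3596 genes were within 0.25, so that this likeness is shared by many genes.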

How the data were processed

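RNA-Seq libraries (stranded mRNA, single end, 101 bp) of 2 ctrl and 2 Zfp276cko cultures were analysed. Reads were aligned by the authors with STAR 2.5.4a to mm10, and they deposited raw counts per gene symbol. The study's methods name HTSeq and the submitters' processing notes featureCounts 1.5.1 for counting, and the strand setting is not given in the sources used here. Genes were filtered with filterByExpr, scaled with TMM and compared with edgeR 4.0.16 (quasi-likelihood test, R 4.3.3), with Benjamini-Hochberg adjustment over all 15766 genes tested. An SE is the absolute log2 fold change divided by the root of F. DESeq2 1.42.0 was an alternative. Members and lists were chosen with earlier results of these data known. Named pathway genes had a mean of at least 20 and a log2 fold change of 0.6 or more in either direction, or most counts of their role. Patterns were compared on log2 CPM with a prior count of 2. Alternatives were other scaling, filters, a replicate block, an unadjusted p, Sox10 as reference, and leaving out each library. Gene positions are those of GENCODE for mm10, which may differ from that used for counting. The study's methods call the 2 preparations of a genotype independent. Nothing says that the libraries of a genotype came from separate litters, so p-values measure the spread between these libraries. No protein sequence was used here. Some genes that the naming rule covers are named neither in the text nor with values of their own.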

Additional observations from a re-analysis of the deposited data

How the results depend on the processing

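Of 90 values of the 10 genes under alternatives with a test, 68 kept direction and side of an adjusted p of 0.05, 16 newly passed it and 6 turned direction. The 10 values relative to Sox10 have no test and kept direction. In place of 0, genes called lower numbered 338 with DESeq2 and 475 with an unadjusted p, and genes called higher numbered 449 and 805, and 8 without a filter on low counts. Leaving out 1 library gave from 0 to 1285 genes lower and from 0 to 1788 higher. Without 1 ctrl library, such fits assume that the lone ctrl library varies like the Zfp276cko libraries. Most of the 16 values that newly passed came from them, so these are not read as a result about the 10 genes. Without either ctrl library in turn, an alternative added after seeing the data, from 1 to 5 of the 10 were below ctrl and from 5 to 8 above, beside 41.7% to 42.6% below and 44.4% to 46.5% above among all genes tested. Over fits without 1 library, Trf ranged from −1.75 to 0.0933, Steap3 from −0.16 to 0.79, Ncoa4 from −0.29 to 0.0627 and Ireb2 from −0.11 to 0.14 (log2). Ireb2 was also at −0.00085 with DESeq2. The cause was not tested. The median of the 10 was −0.03 without ctrl 2 and 0.29 without ctrl 1. Deviations from the genotype mean had a correlation of 0.0291 over genes between same-numbered libraries. The Zfp276cko libraries differed so little that this cannot show whether replicate numbers pair the libraries. With a replicate block the median was 0.20 and 0 genes were called. With 2 libraries a genotype, only large changes can be told from the spread of ctrl.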
